A study of Mus musculus with 2 samples.

Results

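The 10 genes described here are members of the Notch pathway of the mouse: the receptors Notch1, Notch2 and Notch3, the ligands Dll1, Jag1 and Jag2, the target genes Hes1, Hey1 and Heyl, and Hes6, a relative of Hes1. They were chosen by gene symbol, and all 10 were found among the 26100 genes shared by both libraries. The study sequenced 2 single-cell libraries with the 10x Genomics 3′ assay, in which each captured RNA molecule is counted by a unique molecular identifier (UMI). One library came from mouse embryonic fibroblasts (MEF) grown in MEF medium. The other came from induced myogenic progenitor cells (iMPC), which are fibroblasts turned toward muscle by MyoD, the master regulator of the muscle lineage, together with F/R/C, and then kept in F/R/C medium. F/R/C stands for forskolin, RepSox and CHIR99021, small molecules that raise cAMP, block the TGF-beta receptor and activate Wnt signalling. All cells of both libraries carried the Pax7-nGFP reporter transgene on a C57BL6;DBA2 background, so the fibroblasts are no wild-type reference. The series text speaks of a stable iMPC clone, so the iMPC cells may descend from few founders, and the treatment text of the MEF sample repeats that of the iMPC sample. There was 1 library per group. No test between groups was therefore possible, no p-value is given, and each range in parentheses is an exact 95% interval, which covers the error of counting and nothing else.

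Notch signalling passes between touching cells. A ligand of the Delta or Jagged family on one cell binds a Notch receptor on its neighbour, the receptor is cut, and its inner part enters the nucleus, joins the DNA-binding protein Rbpj and switches on genes of the Hes and Hey families. In muscle the pathway is known for keeping satellite cells, the Pax7-expressing stem cells of the tissue, undifferentiated, with Dll1 on differentiating myoblasts as one source of the signal. Hes6 is known as a partner and antagonist of Hes1 that is switched on during muscle differentiation, and it does not serve as a readout of Notch. RNA levels show which cells hold ligand, receptor or target transcripts and do not measure ligand binding or receptor cleavage.

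Cells were kept at no more than 20% mitochondrial UMIs, and iMPC barcodes in addition needed at least 8036 UMIs. This left 6043 MEF cells with a median of 18929 UMIs and 9349 iMPC cells with a median of 20846. The iMPC cells were read as 4 sets. The Pax7 set, with at least 1 Pax7 UMI and no Myog UMI, held 2180 cells. The Myog set, with at least 5 Myog and at most 1 Ckm UMIs, held 1724. The Ckm set, with at least 5 Ckm UMIs, held 1037, and the Dcn set, with at least 5 Dcn UMIs, held 553. The remaining 4001 cells, 42.8% of the iMPC cells, fell in no set, 5202 were in exactly 1 set and 146 in more than 1, of which 110 were in both the Pax7 and the Dcn set. Ckm cells were the deepest, with a median of 42148 UMIs against 18729.5 in the Pax7 set, 23857.5 in the Myog set and 18064 in the Dcn set.

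The sets held the transcripts that their names call for, since those genes chose them, so genes outside the rule were looked at as well. The embryonic myosin Myh3 had a median of 89 UMIs per cell in the Ckm set, 3 in the Myog set and 0 in the Pax7 set. The fibrillar collagen Col3a1 had a median of 42 UMIs in the Dcn set and 10 in both the Pax7 set and the MEF cells. The Pax7 set is thus not free of fibroblast genes: its 9 fibroblast markers summed to 1365 CPM (UMIs of the gene per 1000000 UMIs of the set), against 298 in the Myog set, 143 in the Ckm set, 5232 in the Dcn set and 6568 in MEF. Dcn, the gene that chose the Dcn set, is among the 9 and gave 1162 CPM of that set's sum, by the rule. Endothelial markers summed to at most 2.14 CPM in any set. The 8 neural markers summed to 243 CPM in the Pax7 set, 110 in the Myog set, 63.9 in the Ckm set, 80.2 in the Dcn set and 49.5 in MEF, nearly all from Stmn2 and Tubb3, with Neurog1 and Neurog2 at 0. This list thus moves with Notch3, Hey1 and Heyl between the muscle sets, and its part in their levels was not tested. Just inside the rule, 889 Pax7 cells had exactly 1 Pax7 UMI, and just outside it 1420 cells had neither Pax7 nor Myog and 1076 had Pax7 with 1 Myog UMI. At the other cuts, 77 cells had exactly 5 Myog UMIs and 118 had 4, 105 had 5 Ckm UMIs and 115 had 4, and 29 had 5 Dcn UMIs and 54 had 4. Between the libraries, 16 cell barcodes were shared.

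Start-site sequences are shown for a ligand and a bHLH gene that were higher in the Myog set, Dll1 and Hes6, and for a receptor that was highest in the Pax7 set, Notch3. RefSeq windows of the 250 bases before the start site (GRCm38.p6) were found for 7 of the 10 genes, 9 windows in all, with none for Hes1, Hey1 and Heyl. Each is read 5′ to 3′ on the minus strand of the chromosome, on which all 3 genes lie. Capitals mark CAGCTG, an E-box that reads the same on both strands and is the form most often associated with Myod1 and Myog.
Dll1, second start site, chr17:15376933-15377182: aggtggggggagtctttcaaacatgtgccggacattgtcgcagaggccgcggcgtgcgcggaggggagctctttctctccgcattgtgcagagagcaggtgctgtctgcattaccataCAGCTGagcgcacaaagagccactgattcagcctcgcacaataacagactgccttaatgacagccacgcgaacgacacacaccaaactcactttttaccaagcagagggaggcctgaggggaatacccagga
Hes6, second start site, chr1:91414039-91414288: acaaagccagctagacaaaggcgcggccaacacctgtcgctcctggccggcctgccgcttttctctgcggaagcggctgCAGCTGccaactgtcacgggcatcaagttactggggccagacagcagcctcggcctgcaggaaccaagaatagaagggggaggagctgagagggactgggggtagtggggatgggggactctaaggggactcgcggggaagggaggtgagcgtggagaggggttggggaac
Notch3, chr17:32166891-32167140: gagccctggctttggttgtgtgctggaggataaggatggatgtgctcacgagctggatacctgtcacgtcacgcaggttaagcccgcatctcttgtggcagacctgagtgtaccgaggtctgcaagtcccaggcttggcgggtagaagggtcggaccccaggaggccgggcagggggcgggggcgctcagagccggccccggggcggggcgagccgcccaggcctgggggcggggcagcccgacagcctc
The E-box begins 132 bases before the start in the Dll1 window and 171 in the Hes6 window, and the Notch3 window has none. It also lay in the Jag1 window, 82 bases before the start, and in the other Hes6 window, 150 bases before it. No match was found in the first Dll1 window or in those of Notch1, Notch2 and Jag2. Of 32851 mouse windows of this length, 13% hold CAGCTG, and 66.2% hold the looser CANNTG, which includes it. The core of the Rbpj site, TGGGAA, searched on both strands, lies in 21.6% of all windows and in none of the 9. These matches describe letters near start sites, and no binding was measured.

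Dll1 (chr17:15367354-15376872, minus strand), the Delta-family ligand, was concentrated in the Myog set. It stood at 41.5 CPM (39.6 to 43.4) there, at 5.61 (4.93 to 6.36) in the Pax7 set, 6.76 (6.05 to 7.53) in the Ckm set and 6.74 (5.36 to 8.36) in the Dcn set. In MEF it was at 0.144 CPM, from 17 UMIs in the whole library. The Myog set was the high group and its interval was clear of all others, while those of the Pax7, Ckm and Dcn sets overlapped. On the log2 scale the level was 2.89 (2.69 to 3.08) higher in the Myog than in the Pax7 set and 2.62 lower in the Ckm than in the Myog set (-2.62, -2.79 to -2.45). Read at 5000 UMIs per cell, which makes cells of unequal depth comparable, 20.6% of Myog cells (18.8 to 22.6) had a Dll1 UMI. The shares in the Pax7, Ckm and Dcn sets were 2.98%, 3.47% and 3.07%. Without thinning, 54.8% of Myog cells and 19.7% of the deeper Ckm cells had one.

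Jag2 (chr12:112907819-112929776, minus strand), a Jagged-family ligand, was also higher in the muscle-committed sets, but did not come back down. Its level was 4.98 CPM (4.34 to 5.68) in the Pax7 set, 16.6 (15.5 to 17.9) in the Myog set and 21.5 (20.3 to 22.9) in the Ckm set. The Dcn set had 4.11 (3.05 to 5.41) and MEF 0.356 (0.256 to 0.481). On the log2 scale the Myog set was 1.74 (1.52 to 1.97) above the Pax7 set, and the Ckm set 0.37 (0.24 to 0.51) above the Myog set, which is within 2-fold. Dll1 and Jag2 thus differ in the Ckm set, where Dll1 was near its Pax7 level and Jag2 was at its highest. The share of Ckm cells with a Jag2 UMI at 5000 UMIs was 9.55%, against 8.58% in the Myog set and 2.52% in the Pax7 set.

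Jag1 (chr2:137081456-137116644, minus strand), the other Jagged ligand, ran the opposite way. It was highest in MEF, at 23.8 CPM (22.9 to 24.7), and 8.98% of MEF cells had a UMI at 5000 UMIs. In the iMPC library it stood at 7 CPM (6.24 to 7.82) in the Pax7 set, 6.90 (5.50 to 8.54) in the Dcn set, 2.23 (1.82 to 2.70) in the Myog set and 0.760 (0.535 to 1.05) in the Ckm set. The Pax7 and Dcn sets could not be told apart for Jag1 (log2 difference -0.02, -0.39 to 0.33). Summed over the 3 ligands, the Myog set had 60.3 CPM, the Ckm set 29.1, MEF 24.3, the Dcn set 17.7 and the Pax7 set 17.6. The make-up of these sums differed, with Dll1 the main part in Myog cells, Jag2 in Ckm cells and Jag1 in MEF.

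**Figure D1:**
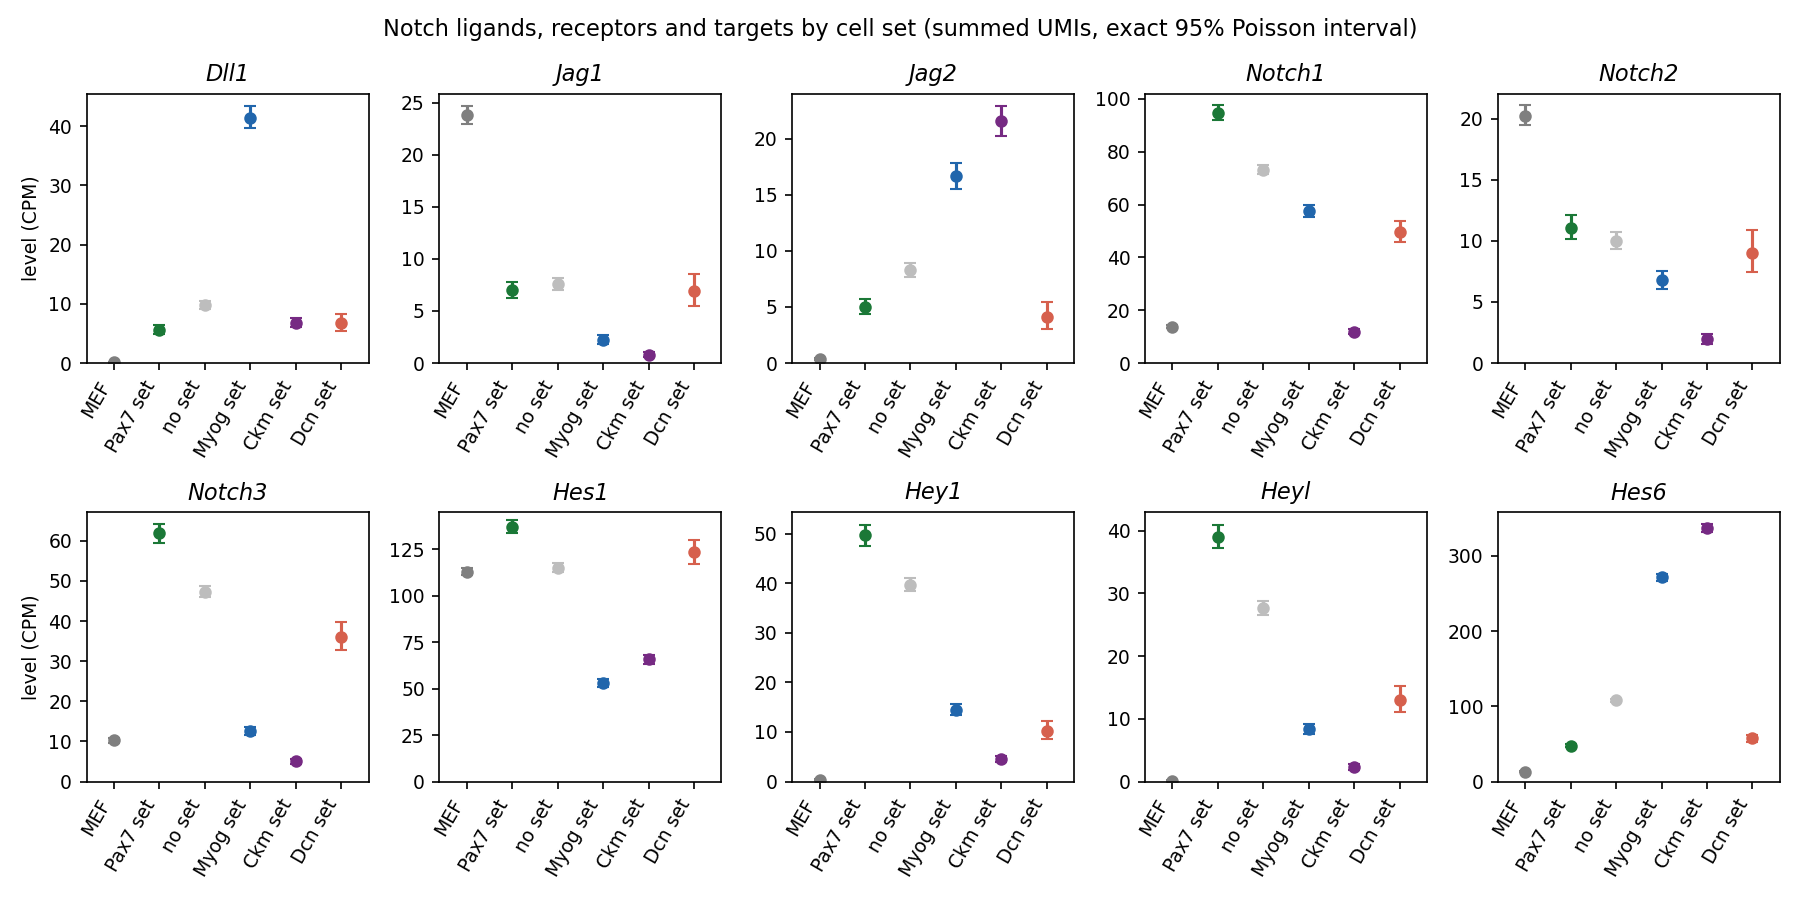
Level of each of the 10 genes in CPM (vertical axis, linear from 0, scaled per gene) in MEF, the 4 iMPC sets and the iMPC cells in no set; points are summed UMIs of 1 library and bars exact 95% Poisson intervals. Dll1 peaks in the Myog set at 41.5 CPM, Notch3, Hey1 and Heyl in the Pax7 set, Jag2 and Hes6 in the Ckm set, and Jag1 and Notch2 in MEF.

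Among the receptors, Notch1 (chr2:26457903-26516663, minus strand) and Notch3 (chr17:32120820-32166852, minus strand) were highest in the Pax7 set. Notch3 stood at 61.8 CPM (59.5 to 64.2) in the Pax7 set, 36.1 (32.8 to 39.7) in the Dcn set, 12.5 (11.5 to 13.6) in the Myog set, 10.3 (9.72 to 10.9) in MEF and 5.04 (4.42 to 5.71) in the Ckm set. The intervals of no 2 groups overlapped, with the Myog set and MEF nearest to each other. Notch1 stood at 94.8 CPM (91.9 to 97.7) in the Pax7 set, 57.5 (55.3 to 59.7) in the Myog set, 49.8 (45.9 to 53.9) in the Dcn set, 13.8 (13.1 to 14.5) in MEF and 11.9 (10.9 to 12.9) in the Ckm set.

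Between the Pax7 and the Myog set the receptors differed in size of change. Notch3 was lower in the Myog set by a log2 difference of -2.31 (-2.44 to -2.18), past 2-fold, and Notch1 by -0.72 (-0.79 to -0.65), within 2-fold. With the set genes read at 8000 UMIs per cell, Notch1 too was past 2-fold lower, at -1.29, as was Notch2 at -1.37, and Notch3 was at -3.18. Between the Myog and the Ckm set the sizes were the other way round, at -2.27 (-2.41 to -2.14) for Notch1 and -1.31 (-1.53 to -1.09) for Notch3. The gap was smaller with likely doublets (barcodes holding 2 cells) removed, at -2.63 for Notch1 and -2.08 for Notch3. By the bound given below, RNA leaked from other cells could give 54.6% of Notch3 and 31.6% of Notch1 in the Ckm set. At 5000 UMIs a Notch1 UMI was found in 36.2% of Pax7 cells, 24.4% of Myog cells and 5.01% of Ckm cells. For Notch3 the shares were 25.4%, 4.99% and 2.12%. The Notch3 share in Ckm cells equals that of Pax7 there, 2.12%, a gene that such cells should lack. The share of Pax7 is no measure of background for Notch3, so whether the Notch3 share is expression cannot be told from it.

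Notch2 (chr3:98013527-98150361, plus strand), the receptor with the lowest range in the iMPC sets, was highest in MEF. Its level was 20.3 CPM (19.5 to 21.1) in MEF, 11.1 (10.1 to 12.1) in the Pax7 set, 9.04 (7.43 to 10.9) in the Dcn set, 6.78 (6.05 to 7.57) in the Myog set and 1.93 (1.56 to 2.36) in the Ckm set. The interval of the Dcn set overlapped those of the Pax7 and Myog sets, and the other neighbours in that order were clear of each other. Summed over the 3 receptors, the Pax7 set had 168 CPM, the cells in no set 131, the Dcn set 95, the Myog set 76.8, MEF 44.3 and the Ckm set 18.8.

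Hey1 (chr3:8663359-8667256, minus strand) and Heyl (chr4:123233556-123249875, plus strand), repressors that are direct Notch targets in muscle stem cells, were highest in the Pax7 set, as were Notch1 and Notch3. Both were nearly absent from MEF, where the summed receptors stood at 44.3 CPM. Heyl was at 39.1 CPM (37.2 to 40.9) in the Pax7 set, 13 (11 to 15.2) in the Dcn set, 8.33 (7.52 to 9.21) in the Myog set and 2.32 (1.91 to 2.79) in the Ckm set. MEF had 19 UMIs, or 0.161 CPM. Hey1 was at 49.6 CPM (47.6 to 51.8) in the Pax7 set, 14.5 (13.4 to 15.6) in the Myog set, 10.3 (8.55 to 12.2) in the Dcn set, 4.46 (3.89 to 5.09) in the Ckm set and 0.356 in MEF. The Pax7 set was the high group for both, and the intervals of no 2 sets overlapped. Between the Myog and Dcn sets the pair parted, with Hey1 lower in the Dcn set and Heyl lower in the Myog set.

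From the Pax7 to the Myog set the log2 difference was -2.23 (-2.39 to -2.07) for Heyl and -1.78 (-1.91 to -1.65) for Hey1. Of Pax7 cells read at 5000 UMIs, 31.7% had a UMI of at least 1 of the pair. The share was 8.87% in the Myog set, 7.59% in the Dcn set, 2.31% in the Ckm set and 0.278% in MEF. The Ckm shares of each gene alone, 1.54% for Hey1 and 0.771% for Heyl, were below the 2.12% of Pax7 there. The share of Pax7 is no measure of their background, so whether they are expression cannot be told from it.

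Hes1 (chr16:30064384-30067796, plus strand), the most widely used Notch target and one that other signals also switch on, did not mark the Pax7 set off from the fibroblasts. It stood at 137 CPM (134 to 140) in the Pax7 set, 123 (117 to 130) in the Dcn set, 113 (111 to 115) in MEF, 65.7 (63.4 to 68) in the Ckm set and 53.1 (51 to 55.3) in the Myog set. The log2 difference was -1.37 (-1.43 to -1.30) from the Pax7 to the Myog set and 0.28 (0.24 to 0.33) between the Pax7 set and MEF. Alone among the 3 targets, Hes1 was not lower in the Ckm than in the Myog set (0.31, 0.23 to 0.38). Its counts were also uneven from cell to cell. In the Pax7 set at 5000 UMIs the variance was 1.67 times the mean, against 1.13 for Notch1, and 59.4% of cells had no Hes1 UMI where counting alone would leave 50.8%.

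Hes6 (chr1:91411483-91414038, minus strand) went against Hes1. It stood at 336 CPM (331 to 342) in the Ckm set, 272 (267 to 276) in the Myog set, 57.3 (53.2 to 61.8) in the Dcn set, 47.3 (45.3 to 49.4) in the Pax7 set and 13.2 (12.5 to 13.9) in MEF. The log2 difference from the Pax7 to the Myog set was 2.52 (2.45 to 2.59). At 5000 UMIs a Hes6 UMI was found in 72.5% of Ckm cells, 63.5% of Myog cells and 19.3% of Pax7 cells. The Dcn set is the one where the Hes6 value is least firm: with likely doublets (barcodes holding 2 cells) removed, its log2 difference from the Pax7 set was -0.73 in place of 0.28. The order of the Ckm and Myog sets for Hes6 was not firm either. With the set genes read at 8000 UMIs per cell, the log2 difference of the Ckm from the Myog set was -0.31 in place of 0.31.

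In the Myog against the Pax7 set, 3 of the 9 genes measured (at least 10 CPM in the higher set) were more than 2-fold higher, namely Dll1, Jag2 and Hes6, and 4 were more than 2-fold lower, namely Notch3, Hes1, Hey1 and Heyl. Over all 7932 genes measured the shares were 7.02% higher and 11.5% lower. The members' median log2 difference was -0.72, beside -0.14 for all genes. In the Ckm against the Myog set, 4 of 7 were lower, Dll1, Notch1, Notch3 and Hey1, where 13.8% of all genes were, and none was higher, where 6.53% were. The median was -1.31, beside -0.23. With the set genes read at 8000 UMIs per cell the Ckm set held 278 cells in place of 1037 and the count was 2. The log2 differences were then -2.40 for Dll1, -2.30 for Notch1, -1.07 for Notch3 and -1.27 for Hey1. All 4 were still past 2-fold in size, so the lower count came from the minimum of 10 CPM in the higher set. Jag2, Hes1 and Hes6 stayed within 2-fold at that step.

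**Figure D2:**
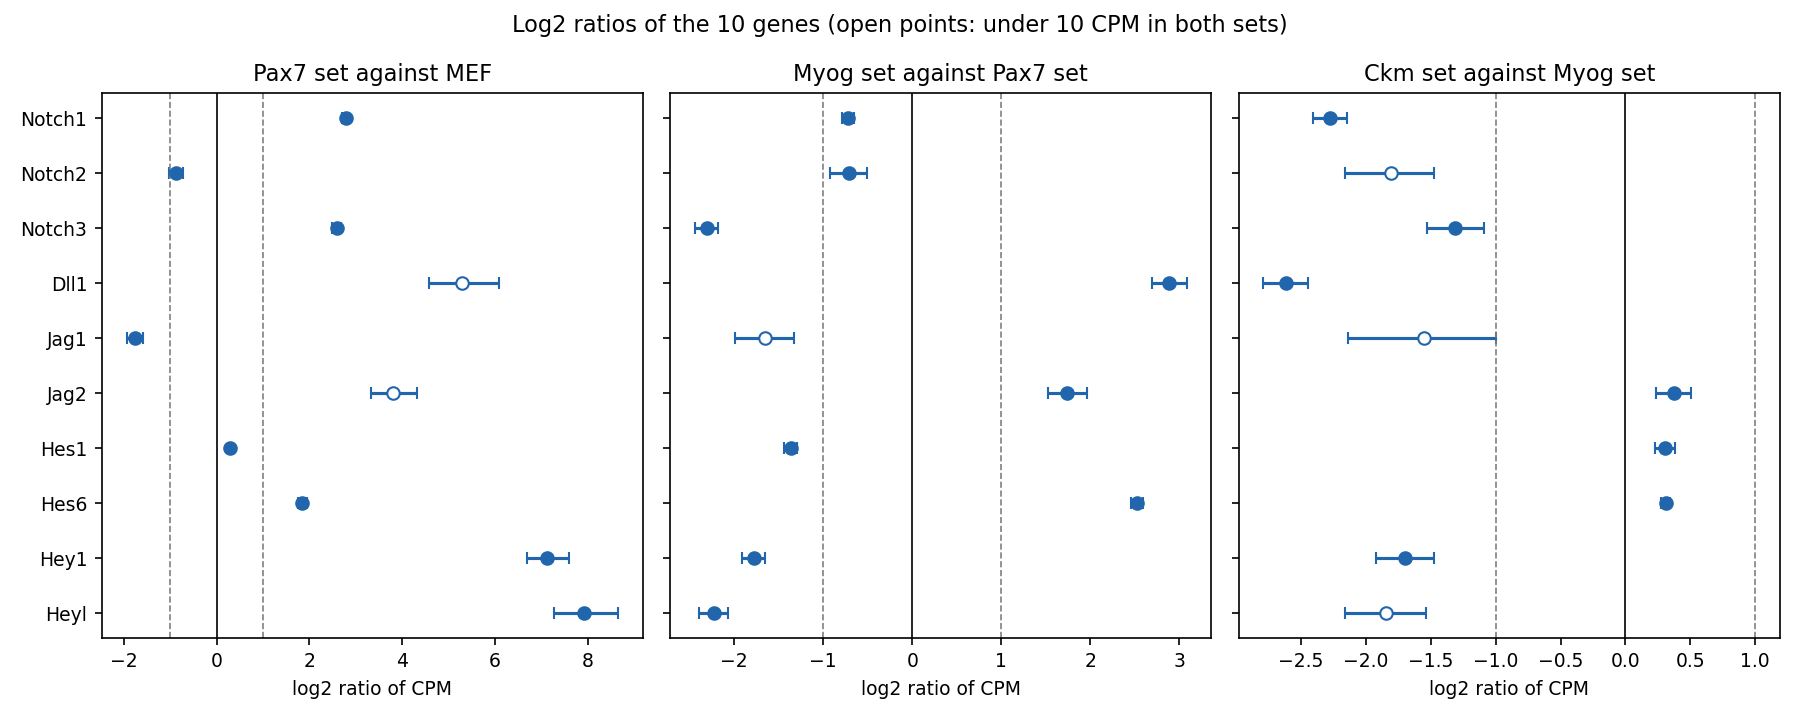
Log2 ratio of CPM (horizontal axis) for the 10 genes in 3 comparisons, with exact 95% intervals; dashed lines mark 2-fold and open points are genes under 10 CPM in both sets. Dll1, Jag2 and Hes6 lie right of the upper line in the Myog against the Pax7 set, and Dll1, Notch1, Notch3 and Hey1 left of the lower line in the Ckm against the Myog set.

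The order of these differences was followed in 12 bins of iMPC cells, cut by the UMIs of Pax7 among cells without Myog, then of Myog and then of Ckm. Cells with 1 to 4 Myog UMIs and at most 1 of Ckm still had Notch3 at 55.3 CPM and Hey1 at 49.2, while Dll1 was at 9.88 (9.05 to 10.8). In cells with 5 to 9 Myog UMIs, Dll1 was at 34.5 (29.9 to 39.6), Notch3 at 27.8 (23.7 to 32.5) and Heyl at 20 (16.5 to 24), with Notch1 at 98.1 (90.2 to 106). Dll1 was thus already near its highest level in cells where Notch1 was as high as in Pax7 cells and Notch3, Hey1 and Heyl were lower than in Pax7 cells but present. Notch2, at 9.91 (7.52 to 12.8), was not told apart from its level there.

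Dll1 was highest in cells with 20 or more Myog UMIs, at 44.2 CPM (41.9 to 46.5). There Notch3 was down to 8.16 CPM, Heyl to 5.15 and Notch1 to 47.2. With 2 to 4 Ckm UMIs, Dll1 was at 14.7 (12.9 to 16.6), and with 5 to 19 at 7.34 (6.41 to 8.38). Jag2 stayed between 15.2 and 23.8 CPM from the cells with 5 to 9 Myog UMIs to those with 20 to 99 Ckm UMIs. Hes1 was lowest, at 42 CPM (39.8 to 44.3), in the cells with the most Myog and stood at 79.6 (75.5 to 83.8) in those with 20 to 99 Ckm UMIs. Only 6 cells had 100 or more Ckm UMIs, too few to read.

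Within the cells that had no Myog, Hey1 and Heyl followed the Pax7 count and Hes1 did not. Heyl was at 26.4 CPM (24.3 to 28.5) in cells with no Pax7 UMI, 34.1 (31.3 to 37.0) with 1, 37.0 (34.3 to 39.9) with 2 or 3 and 52.2 (47.6 to 57.0) with 4 or more. Hey1 was at 31.5, 41.0, 49.8 and 63.9 CPM in the same order. Hes1 lay between 127 and 138 CPM throughout. The median depth of these 4 bins was 15968.5, 17483, 19051 and 21047.5 UMIs. Cells of the Dcn set were not left out of them. In the 359 cells of that set without Pax7, Heyl was at 11.6 CPM, Hey1 at 10.3 and Hes1 at 116. The part of such cells in the bin with no Pax7 UMI was not tested. With the bins cut on counts of Pax7, Myog and Ckm thinned to 8000 UMIs per cell, the bin with 4 or more Pax7 UMIs was again the highest for Notch1, Notch2, Notch3, Hey1 and Heyl, and that with 20 or more Myog UMIs for Dll1. The highest bin moved for Hes6 from 5 to 19 Ckm UMIs to 20 or more Myog UMIs, for Jag2 from 20 to 99 Ckm UMIs to 5 to 19, and for Hes1 from 2 or 3 Pax7 UMIs to 1.

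**Figure D3:**
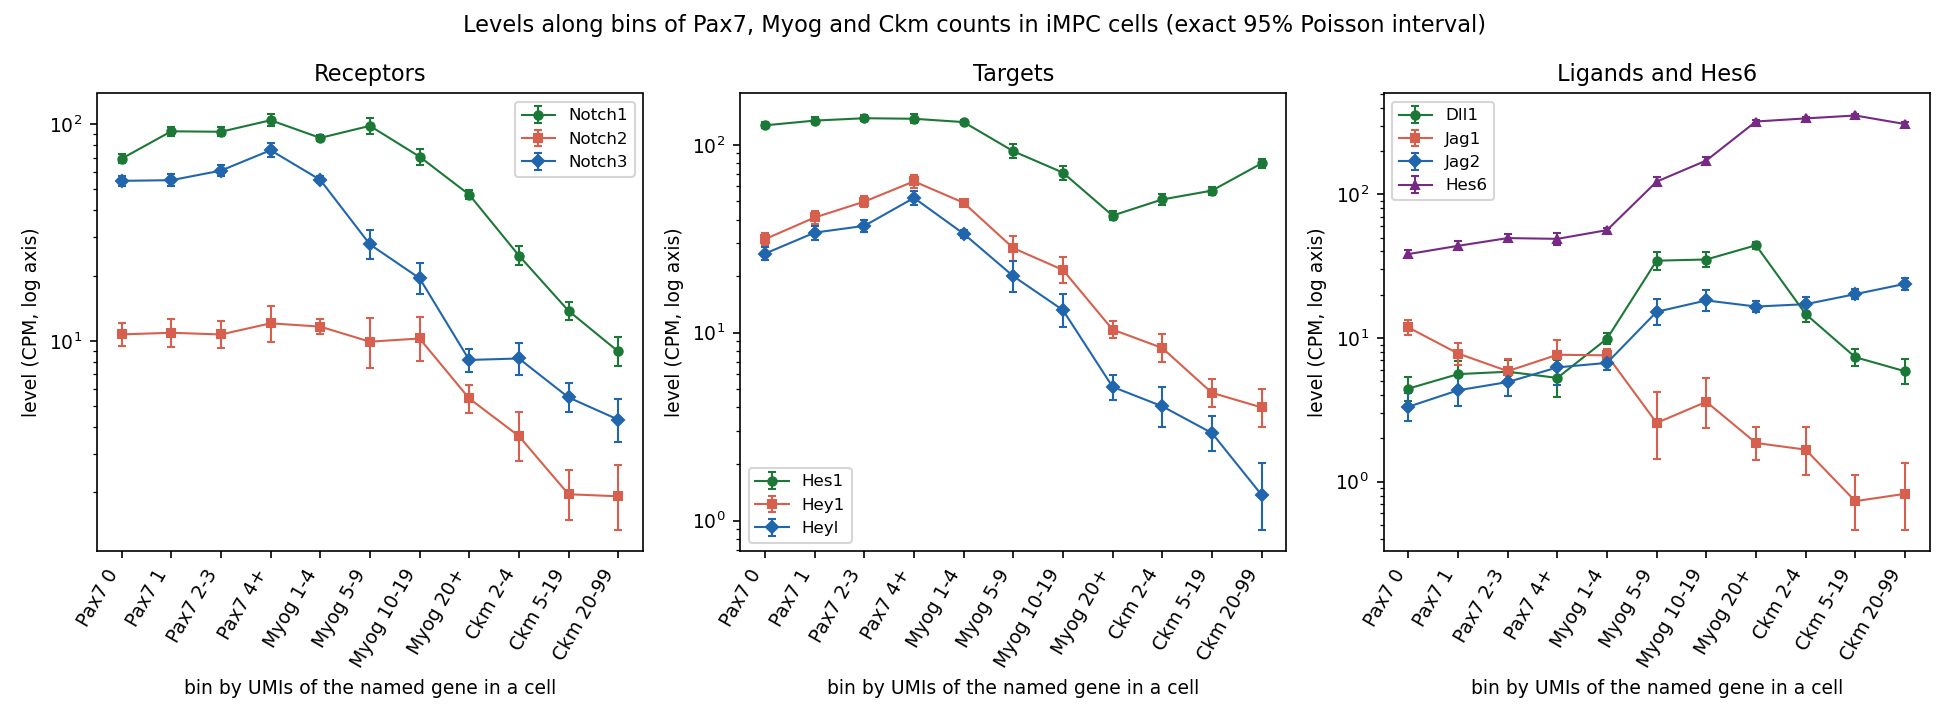
Level in CPM (vertical axis, logarithmic) along 11 of the 12 bins of iMPC cells by UMIs of Pax7, Myog and Ckm (horizontal axis), with exact 95% Poisson intervals; the bin of 6 cells with 100 or more Ckm UMIs is not drawn. Notch3, Hey1 and Heyl are highest at 4 or more Pax7 UMIs, Dll1 at 20 or more Myog UMIs (44.2 CPM), and Hes1 is lowest at 20 or more Myog UMIs (42 CPM).

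To see which cells hold ligand and which hold receptor, each cell was read at 5000 UMIs for any of the 3 ligands and any of the 3 receptors. In the Pax7 set, 49.6% of cells had a receptor UMI and no ligand UMI, and 3.85% the reverse. In the Myog set both kinds were alike in number, with 20.8% receptor only and 19.4% ligand only, and 8.87% had both. In the Ckm set 12.1% had a ligand only and 6.94% a receptor only, and in the Dcn set 3.80% and 35.4%. The cells in no set were like the Pax7 set in this, with 4.90% ligand only and 42.4% receptor only. MEF had 7.28% ligand only, mainly Jag1, and 16.9% receptor only. By transcripts, then, the Pax7 and Dcn sets and the cells in no set were mostly on the receptor side, the Ckm set was mostly on the ligand side with few cells of either kind, and the Myog set held both. At this depth many cells had neither, from 41.6% in the Pax7 set to 80.0% in the Ckm set, which is no sign that they lack both.

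**Figure D4:**
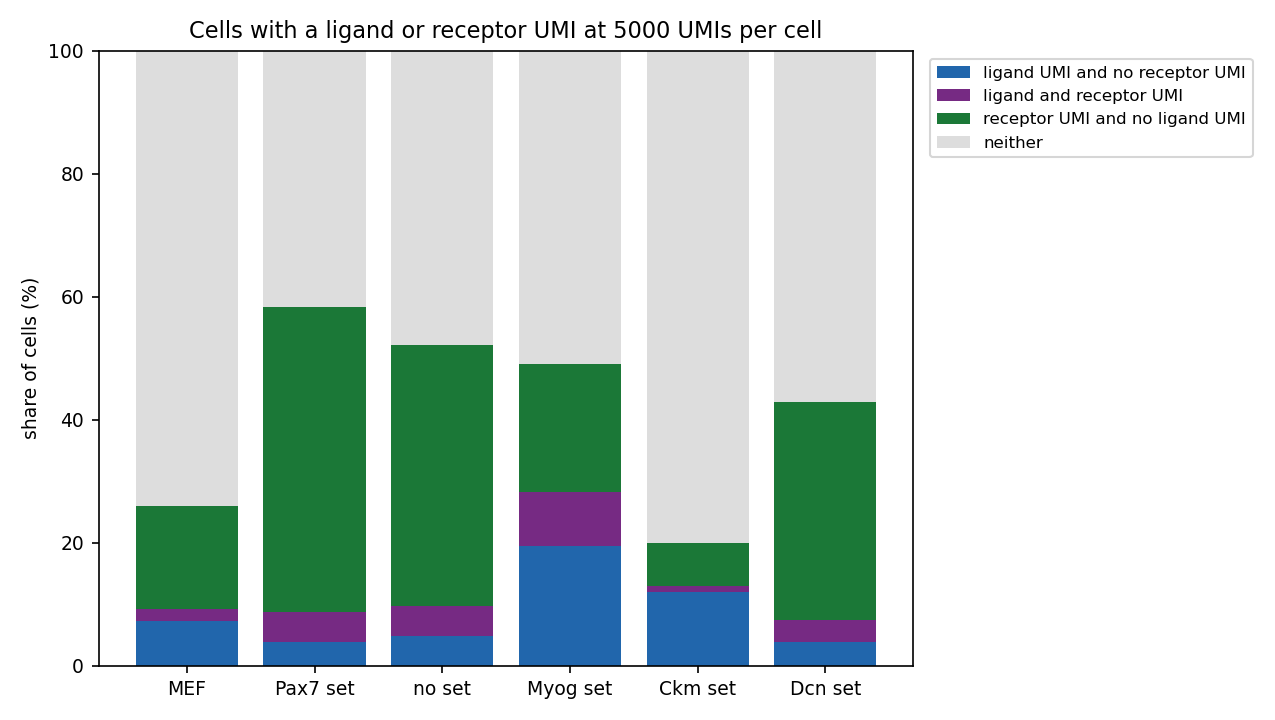
Share of cells (vertical axis, %) in MEF and each iMPC set with a ligand UMI only, both, a receptor UMI only, or neither, each cell thinned to 5000 UMIs. Receptor-only cells make up 49.6% of the Pax7 set, and ligand-only cells 19.4% of the Myog set and 12.1% of the Ckm set.

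For Dll1 with Heyl and with Notch3, the split was also seen over all iMPC cells pooled, which includes the differences between the sets. Over all iMPC cells at 5000 UMIs, 5.63% of cells with a Dll1 UMI had a Heyl UMI, against 10.5% of cells without (log2 odds ratio -0.98, -1.52 to -0.48). For Dll1 with Notch3 the shares were 9.49% and 17.2% (-0.99, -1.41 to -0.59). At 2000 UMIs the Notch3 value was -0.14. Within the Myog set alone neither pair stood apart from 0, at 0.29 (-0.75 to 1.24) for Heyl and 0.42 (-0.37 to 1.17) for Notch3, so the pattern over all cells was not seen within the Myog set. Within the Pax7 set, 3 of the 65 cells with Dll1 had Heyl, or 4.62%, against 16.5% of the others (-2.02, -4.35 to -0.40). Dll1 with Notch3 did not stand apart from 0 there, at -0.32 (-1.30 to 0.57). Dll1 with Hes1 was at -0.52 (-0.79 to -0.25) over all iMPC cells. It was at 0.06 (-0.72 to 0.82) within the Pax7 set and -0.17 (-0.63 to 0.28) within the Myog set.

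Dll1 with Notch1 and Dll1 with Notch2 did not show this pattern over all iMPC cells, at 0.25 (-0.01 to 0.51) and -0.12 (-0.76 to 0.47). In the Myog set 28.9% of cells with Dll1 also had Notch1, against 23.2% of those without (log2 odds ratio 0.43, 0.04 to 0.82). Notch3 and Heyl went together: over all iMPC cells 18.9% of Notch3-positive cells had Heyl, against 8.44% of the others (1.34, 1.12 to 1.56), and within the Pax7 set 21.3% against 14.3% (0.69, 0.33 to 1.06). The value was 1.83 (0.48 to 2.99) in the Myog set, 4.97 (2.18 to 7.45) in the Ckm set and 1.17 (-0.27 to 2.48) in the Dcn set. Notch3 with Hes1 was at 0.63 (0.46 to 0.79) over all iMPC cells. By set it was 0.37 (0.09 to 0.66) in Pax7 cells and 1.26 (0.54 to 1.95) in Myog cells. It was not told apart from 0 in Dcn cells (-0.12, -0.89 to 0.62) or Ckm cells (-0.77, -3.18 to 1.02). Jag1 did not show the split seen for Dll1. Over all iMPC cells it went together with Notch3 (1.37, 0.96 to 1.77) and with Heyl (0.83, 0.29 to 1.34). Within the Pax7 set the values were 0.55 (-0.22 to 1.28) and 1.14 (0.33 to 1.90). In all, 10 pairs were examined.

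Myog cells that still held Pax7 were compared with those that did not, a split chosen after the data were seen. In 237 Myog cells with 2 or more Pax7 UMIs, Dll1 was at 41.6 CPM (37.1 to 46.4), and in 1182 with none at 41.3 (39.0 to 43.6). The receptors and targets were unlike Dll1 in this. Notch3 was at 32.2 CPM (28.3 to 36.5) against 6.61 (5.73 to 7.60), Notch1 at 97.6 (90.7 to 105) against 42.1 (39.8 to 44.5), and Heyl at 21.4 (18.2 to 24.9) against 4.69 (3.95 to 5.53). Hes6 was lower in the cells with Pax7, at 173 CPM against 307. The cells with Pax7 were also deeper, with a median of 30961 UMIs against 22660.5, and the part of depth and of doublets in these values was not tested.

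The Dcn set, the fibroblast-like cells of the iMPC library, was within 2-fold of the Pax7 set for the receptors and below it for Hey1 and Heyl. With stricter cuts on the set genes, Notch1 (-1.29) and Notch3 (-1.01) were past 2-fold lower as well. Against the Pax7 set, 2 of 7 genes measured were more than 2-fold lower, Hey1 (-2.27, -2.55 to -2.01) and Heyl (-1.59, -1.83 to -1.35), where 6.77% of all genes were lower, and none was higher, where 11% were. Against MEF, 5 of 8 were higher, Heyl, Hey1, Hes6, Notch1 and Notch3, where 13% of all genes were, and 2 were lower, Jag1 and Notch2, where 12.9% were. The log2 difference from MEF was 6.33 (5.64 to 7.10) for Heyl and 1.81 (1.65 to 1.97) for Notch3. The Dcn set was not free of muscle genes. Its 8 myocyte markers summed to 3734 CPM, against 834 in the Pax7 set and 96.4 in MEF. The part of muscle RNA in the Hes6 and other levels of the Dcn set was not tested. Splitting the Dcn set by Pax7 left Notch3 at 33.9 CPM in the 359 cells without Pax7 and 39.7 in the 194 cells with it, and Heyl at 11.6 and 15.1.

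Notch3 and Heyl are also known from mural cells, the contractile cells around vessels, so their markers were read in the same sets. Of 10 mural markers, 8 reached 10 CPM in the Dcn set and 7 in the Pax7 set. Pdgfrb, the PDGF receptor of mural cells and fibroblasts, was at 186 CPM in the Dcn set, 59.7 in the Pax7 set and 6.21 in the Myog set, and Cox4i2 at 231, 88.3 and 19.3. Rgs5 was at 54.3, 31.6 and 9, and Kcnj8 at 26.9, 12.9 and 3.14. The list's sum, 1491 CPM in the Dcn set, 1173 in the Pax7 set, 1968 in the Myog set, 3324 in the Ckm set and 6215 in MEF, followed Des and Acta2, which muscle cells and fibroblasts also make. Abcc9 went the other way between the muscle sets, at 24.2 CPM in the Dcn set, 6.50 in the Pax7 set and 10.0 in the Myog set. Pdgfrb, Cox4i2, Rgs5 and Kcnj8, picked from the list after their values were seen, move with Notch3 between the Pax7 and the Myog set but not between the Dcn and the Pax7 set. The part of mural markers in the Notch3 and Heyl levels was not tested.

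Against MEF, the whole iMPC library had 7 of 10 genes more than 2-fold higher, where 14.8% of all genes were, and 2 lower, where 21.5% were. The largest log2 differences were 6.97 (6.33 to 7.71) for Heyl, 6.65 (5.97 to 7.43) for Dll1, 6.31 (5.87 to 6.78) for Hey1 and 5.06 (4.62 to 5.53) for Jag2, all from genes nearly absent in MEF. Jag1 (-2.25, -2.35 to -2.15) and Notch2 (-1.37, -1.46 to -1.28) were lower. In the Pax7 set against MEF, 5 of the 8 genes measured were higher, where 14.8% of all genes were, and Jag1 alone was lower, where 19.4% were. The values were 7.92 (7.28 to 8.66) for Heyl, 7.12 (6.68 to 7.60) for Hey1, 2.78 (2.70 to 2.87) for Notch1, 2.59 (2.49 to 2.69) for Notch3 and 1.84 (1.75 to 1.94) for Hes6. The members' median was 2.22, beside -0.09 for all genes. The 2 libraries differ in culture medium, preparation and depth as well as in cell type, and these cannot be told apart.

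Within the Pax7 set, 1070 cycling cells (10 or more UMIs of 6 cell cycle genes) were compared with 893 that had 2 or fewer. Of the 10 genes, Dll1, Jag1 and Jag2 were under 10 CPM in both groups, and none of the other 7 differed more than 2-fold, where 7.83% of all genes were higher and 6.65% lower in cycling cells. The largest log2 difference among the 7 was for Hey1, 0.57 (0.43 to 0.72), and Jag2, at 6.05 against 3.37 CPM, differed by 0.84 (0.37 to 1.34). Heyl differed by -0.05 (-0.20 to 0.10) and Notch1 by -0.01 (-0.11 to 0.08). Cycling cells had a median of 22795 UMIs and the others 15018.

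Beyond the 10 genes, 59 others of the pathway were read in 8 lists, from ligand and receptor modifiers to nuclear partners and further targets. In the Myog against the Pax7 set, 34 reached 10 CPM, and 1 was more than 2-fold higher and 6 lower. Over all genes measured, 7.02% were higher and 11.5% lower. The one higher was Neurl1a, a ubiquitin ligase known to act on Notch ligands, at 29.0 CPM against 3.54 (log2 difference 3.03, 2.79 to 3.28). Of the 6 lower, 4 were collagens that are reported Notch targets in muscle stem cells, such as Col5a3 (-2.90), Col6a2 (-2.70) and Col6a1 (-2.62), and the others were Dtx3 and Dtx4, of the Deltex family of Notch regulators. Those collagens are fibroblast genes too. In the Dcn set Col6a1 was at 1511 CPM, against 398 in the Pax7 set, and Col5a1 was at 318, against 127 in the Pax7 set and 329 in MEF. With the Dcn cells left out of the Pax7 set, Col6a1 there was at 331 CPM and Col5a3 at 91.9. Levels of the fibroblast markers moved with them, and their part was not tested.

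In the Ckm against the Myog set, 2 of the 34 pathway genes measured were higher and 6 lower. Over all genes measured, 6.53% were higher and 13.8% lower. Dlk1, a Delta-like protein without the Notch-binding domain, was at 528 CPM against 237 (log2 difference 1.16), and the co-repressor Tle4 at 25.1 against 12.5 (1). The lower genes included the co-repressor Tle1 (-2.60), Dtx4 (-1.81) and the histone deacetylase Hdac1 (-1.48). Rbpj, the DNA-binding partner of Notch, was named outside the rule for its role. It stood at 102 CPM in the Pax7 set, 172 in the Myog set, 70.1 in the Ckm set, 176 in the Dcn set and 69.9 in MEF, so it was not highest where the targets were. Reads of Rbpj can be shared with its processed copies in the genome, so its level is uncertain. In the Pax7 set against MEF, 38 pathway genes were measured, 4 higher and 5 lower, where 14.8% of all genes were higher and 19.4% lower. Dtx4 was at 5.28, Col5a3 at 4.10 and Maml3 at 2.33 on the log2 scale, and Maml2 at -3.04.

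Among 7432 genes, those most like each member were ranked by Pearson's r of log2(CPM + 1) over 14 groups: MEF, the Dcn set and the 12 bins. All but MEF are cells of 1 library, and the bins were cut by muscle genes, so high values are common and are given as a description. Dtx4 was the gene most like Heyl (r = 0.992), and it stayed first when the bin of 6 cells was left out. Heyl was among the 5 most like Hey1 (r = 0.981), below Gpc3, Zfp536, Cd28 and Fzd4. Ube2e2 led for Dll1 (0.973), with Ankrd10, Sox8, Esr1 and Purb, and was also first without that bin. Ldhb led for Notch3 (0.990), Rragd for Jag2 (0.991), Akap6, a scaffold protein of muscle, for Hes6 (0.993) and Lims1 for Hes1 (0.975). Of these, Rragd also stayed first without the bin, and the other leaders were displaced. Between members, Hes6 and Jag2 had r = 0.96 and Hes6 and Jag1 r = -0.96.

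RNA that has leaked from cells can give UMIs in cells that do not make a gene. The iMPC barcodes of 200 to 600 UMIs were taken as a picture of such RNA, which was not tested, and the bounds hold only under that reading. Barcodes of 1 to 100 UMIs had another profile, with Notch3 at 26.6 CPM against 14.6 and Notch2 at 16.8 against 3.86, and no bound was computed from it. An upper bound on its share in each set was taken from the one of 41 marker genes that was lowest in the set relative to these barcodes, a calculation chosen after the data were seen. In the Pax7 set the bound was 2.41%, from the fusion gene Mymx, so free RNA could give at most 0.204 of the 5.61 CPM of Dll1 and 0.302 of the 39.1 CPM of Heyl. In the Ckm set the bound was 18.8%, and free RNA could give all of the Heyl level, 58.5% of Hey1, 54.6% of Notch3 and 72.1% of Jag1. It could give 23.5% of Dll1 and 9.03% of Jag2 there. For Notch1 the bound there was 31.6% of the level. The Heyl level of the Ckm set therefore cannot be told apart from background, and those of Jag1, Hey1 and Notch3 could be mostly background. The Jag2 level of the Ckm set and the Dll1 level of the Myog set, where the bound allowed 5.32%, stood well above it. The bound on the free RNA share was largest in the Myog set, at 26.0%. Free RNA could give 39.1% of Heyl, 34.1% of Jag1, 32.7% of Hes1, 30.5% of Notch3 and 25.0% of Hey1 there. For the other members it allowed at most 20.3%, for Hes6.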

How the data were processed

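The deposited values are UMI counts per gene and barcode, which the authors made with Cell Ranger (4.0 in the submitters' processing notes, against GRCm38.p6, with Seurat 3.2.3 also named there); the gene annotation is not given in the sources used here. The iMPC matrix listed 6794880 barcodes with 282903287 UMIs and the MEF matrix 6113 with 118541302, so the MEF barcodes had been selected before deposit by a step not given in the sources used here. The 24 genes listed for MEF alone, with 0.209% of its UMIs, were left out. The iMPC minimum is 10% of the 99th percentile of the 10000 largest barcodes.

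Counts were summed over each set of cells and divided by their total (CPM). Intervals are exact: Poisson for levels, conditional for ratios and odds ratios, Clopper-Pearson for shares. A difference is past 2-fold only with at least 10 CPM in the higher set. Shares were read after thinning each cell to 5000 UMIs, which left out 284 MEF cells and no iMPC cell. Likely doublets (Scrublet in scanpy 1.11.5; 377 iMPC cells, 4.03%) were kept. In MEF its threshold marked only 2 cells, so in the alternative the cells scoring above the limit of the highest 5% were removed, which with tied scores were 249, or 4.12%. Gene positions are from GENCODE M21 and promoters from RefSeq (GRCm38.p6). Python 3.11.15, numpy 2.4.6 and scipy 1.17.1 were used, and the scripts were tested on simulated data. The members, sets, lists and naming rules (every member, up to 3 pathway genes per comparison and direction, and the 5 genes most like each member) were chosen with earlier results of these data known.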

Additional observations from a re-analysis of the deposited data

Results flagged for a closer look

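All 10 genes were found in iMPC barcodes that form no group of the comparisons, the 48846 barcodes of 200 to 600 UMIs, at levels above the 0.141 CPM that a count of 0 would allow. Notch1 was at 19.996 CPM, Notch2 at 3.86, Notch3 at 14.6, Dll1 at 8.47, Jag1 at 2.92, Jag2 at 10.4, Hes1 at 66.8, Hes6 at 211, Hey1 at 13.9 and Heyl at 12.5. These barcodes had a median of 430 UMIs, or 2.06% of the median of the kept cells. If free RNA made up that share of a cell, 0.0873% of cells would show a Dll1 UMI at 5000 UMIs, 0.129% a Heyl UMI and 2.16% a Hes6 UMI. At a share of 10% the values would be 0.423%, 0.624% and 10%. Whether these UMIs come from empty droplets, broken cells or misread barcodes was not tested.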

How the results depend on the processing

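No paired analysis was possible because there was 1 library per group and no replicate numbers. Counts and values for whole comparisons stayed the same in 99 alternatives, moved in 10 and reversed in 0. For single genes and pairs, 695 stayed, 301 moved and 0 reversed, where reversed means that a value past 2-fold, or a pair whose interval lay clear of 0, changed sign. Values within 2-fold or under 10 CPM did change sign, such as Hes6 in the Dcn against the Pax7 set, at -0.73 with doublets removed. A minimum of 50 CPM moved the number of genes past 2-fold to 2 for iMPC against MEF, 2 for the Pax7 set against MEF, 3 for the Myog against the Pax7 set, 1 for the Ckm against the Myog set, 0 for the Dcn against the Pax7 set and 1 for the Dcn set against MEF, by construction, since fewer genes reached the minimum. With no minimum the Ckm against the Myog set had 7. In the Dcn against the Pax7 set, a 1.5-fold limit gave 4 and stricter cuts on the set genes gave 4. With the set genes read at 8000 UMIs per cell, the Ckm against the Myog set had 2, and Notch1 and Notch2 were past 2-fold lower in the Myog than in the Pax7 set (-1.29 and -1.37). Jag2 in the Dcn against the Pax7 set ranged from -1.77 to 0.08. A scaling that sets the median gene's ratio to 0 on the log2 scale takes off a shift of -0.113 for the Myog against the Pax7 set and -0.161 for the Ckm against the Myog set. The split of the Myog and Dcn sets by Pax7, the bound on free RNA and the likeness without the bin of 6 cells were added after the data were seen. The causes were not tested unless stated. Depth limits the low genes most: the Pax7-set value for Dll1 with Heyl rests on 3 cells, and no interval covers variation between cultures.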
